A study of Mus musculus with 20 samples.

Results

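A set of 10 genes, of the 21078 in the sense-strand count table, marks adipocytes, the fat-storing cells that surround many blood vessels. They were taken by gene symbol and are Pparg, Cebpa, Adipoq, Cfd, Lep, Retn, Lpl, Fabp4, Plin1 and Lipe, and each symbol matched 1 gene. Their read counts were measured in RNA of the thoracic aorta of 20 male wildtype C57BL/6 mice aged 10 to 12 weeks. Of these mice, 10 were exposed to high energy protons and 10 to gamma rays, with 1 mouse of each radiation type at a whole-body dose of 0, 5, 10, 25, 50, 75, 100, 125, 150 or 200 cGy. The mice at 0 cGy were sham-treated, and tissue was taken 4 h after exposure. A dose had no replicate within a radiation type, so a value from 1 mouse cannot be told apart from an effect of its dose, and each trend rests on the 10 mice of a radiation type. The question put to these genes was how far they varied among the 20 animals and whether they followed dose.

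Adipocytes form when the nuclear receptor Pparg and the transcription factor Cebpa switch on a shared set of genes for making, storing and releasing fat. White adipocytes hold 1 large droplet and secrete hormones such as leptin (Lep), whereas brown adipocytes burn fat for heat through the uncoupling protein Ucp1. The thoracic aorta of the mouse lies in perivascular fat that resembles brown fat, and the descriptions of these samples do not say how much of it was taken with the vessel. Of the 10 genes, Lep and Retn (resistin) are used mainly by white fat and are called the white pair below, and the other 8 are expressed in white and brown fat alike and are called the general fat genes. A label of white fat therefore rests on 2 of the 10 genes.

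The promoters shown here are those in which a letter pattern bound by the C/EBP family, to which Cebpa belongs, was found. RefSeq gave 11 promoters for 8 of the 10 genes in build GRCm38.p6, and Lpl and Fabp4 had no entry. Each covered 250 bases before and 50 bases after a transcript's start, and both strands were searched for TTGCNNAA, whose reverse complement is TTNNGCAA. It was present in 3 of the 11 promoters, 1 each of Lep, Plin1 and Pparg, against 10.8% of all 32851 RefSeq promoters of the same length. The 250 bases before the start are given 5′ to 3′ on the gene's own strand, with the matches in capitals. They lie at chr6:29059971-29060220 on the plus strand for Lep, at chr7:79732777-79733026 on the minus strand for Plin1 and at chr6:115421816-115422065 on the plus strand for 1 of the 3 promoters of Pparg.
Lep: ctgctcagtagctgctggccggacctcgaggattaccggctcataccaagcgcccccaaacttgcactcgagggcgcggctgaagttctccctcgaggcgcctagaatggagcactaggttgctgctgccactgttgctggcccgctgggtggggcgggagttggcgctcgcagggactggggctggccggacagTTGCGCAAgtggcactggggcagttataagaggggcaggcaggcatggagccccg
Plin1: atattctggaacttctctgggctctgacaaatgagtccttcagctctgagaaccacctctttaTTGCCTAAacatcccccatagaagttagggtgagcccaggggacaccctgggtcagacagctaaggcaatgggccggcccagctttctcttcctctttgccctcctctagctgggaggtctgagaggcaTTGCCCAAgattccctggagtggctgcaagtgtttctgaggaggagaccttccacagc
Pparg: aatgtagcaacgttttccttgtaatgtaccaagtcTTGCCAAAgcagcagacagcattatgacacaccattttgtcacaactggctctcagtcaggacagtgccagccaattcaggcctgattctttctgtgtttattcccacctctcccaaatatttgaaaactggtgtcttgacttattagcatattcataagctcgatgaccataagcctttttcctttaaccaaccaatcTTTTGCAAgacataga
The match of Lep, TTGCGCAA, began 55 bases before the start site. Plin1 held TTGCCTAA from base -187 and TTGCCCAA from base -58, and Pparg held TTGCCAAA from base -215 and TTTTGCAA from base -16. The DR1 repeat, the element bound by Pparg with its partner Rxra, was in none of the 11 windows on either strand, and in 0.0396% of all promoters in its strict spelling and 0.381% in a looser one. The TATA box letters TATAAA, searched on the gene's strand, occurred in the Cebpa promoter alone among the 11, from base -30, against 8.32% of all promoters. CCAAT on either strand occurred in 3 of the 11 promoters, of Adipoq and Pparg, against 37.4% of all. A match is a run of letters and not a measured binding site.

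Libraries were nearly equal in depth, with 6051657 to 6058006 counts per mouse (median 6056776), of which 15800 to 16949 genes had at least 1. Counting error alone sets a floor of 3 counts, or 4.95e-05% of a library. No 2 of the 190 pairs of libraries held identical values. Smooth muscle markers (Myh11, Acta2, Tagln, Cnn1 and Smtn), which define the aortic wall, summed to 160146 to 324203 counts per mouse. A property of the libraries followed dose, since the correlation across 9702 genes between GC content and a gene's deviation from its mean was -0.401 to -0.349 in the 4 mice at 150 and 200 cGy and -0.0182 to 0.284 in the other 16. The 10 fat genes had a median exon GC content of 49.1% (43.5 to 62.6%), against 50.4% over the 13124 genes tested, those whose counts averaged 5 or more over the 20 mice. Its part in the dose trends below was not tested, but the trends of the 10 genes are also given from 0 to 125 cGy.

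Counts of all 10 genes were above the floor in nearly every mouse, the exception being Lep with 3 counts in the proton mouse at 125 cGy. Scaled to exon length and library size (RPKM), Fabp4, the fatty acid carrier of adipocytes, had the highest level, with a median of 794 (451 to 5925). It was followed by the adipocyte protease Cfd (adipsin) at 331 (135 to 1559) and the hormone Adipoq (adiponectin) at 59.4 (28.1 to 476). Levels per length of Lpl (36.4, 16.8 to 348) and Plin1 (17.1, 7.58 to 224) came next. Retn (13, 4.70 to 53.8), Lipe (12.7, 6.14 to 180) and Cebpa (10.2, 5.08 to 106) were close together, and Pparg (6.82, 3.49 to 71.1) and Lep (2.68, 0.148 to 29.0) had the lowest medians. Between neighbours in this order, the ranges over the 20 mice overlapped throughout. All 10 genes are protein-coding in the mm9 annotation, and their positions are given with each gene.

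In these genes 2 mice stood apart, the proton mouse at 75 cGy and the gamma mouse at 100 cGy. They were singled out with earlier results of these data known, so their distance from the other 18 mice is a description with no test. It is given as a fold over the median count of the 18 and as a log2 excess, the log2(count + 1) of the mouse minus the median of the 18. For every one of the 10 genes the proton mouse at 75 cGy had a higher count than each of the 18, as it had for 25.6% of all genes tested (it was below each of the 18 for 16.7%). The gamma mouse at 100 cGy had a higher count than each of the 18 for 9 of the 10 genes, Retn being the exception, and for 12.6% of all genes tested (it was below for 4.9%). Both mice thus held more fat gene reads than the rest, in bulk tissue in which more adipocytes and more RNA per adipocyte cannot be told apart.

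**Figure D1:**
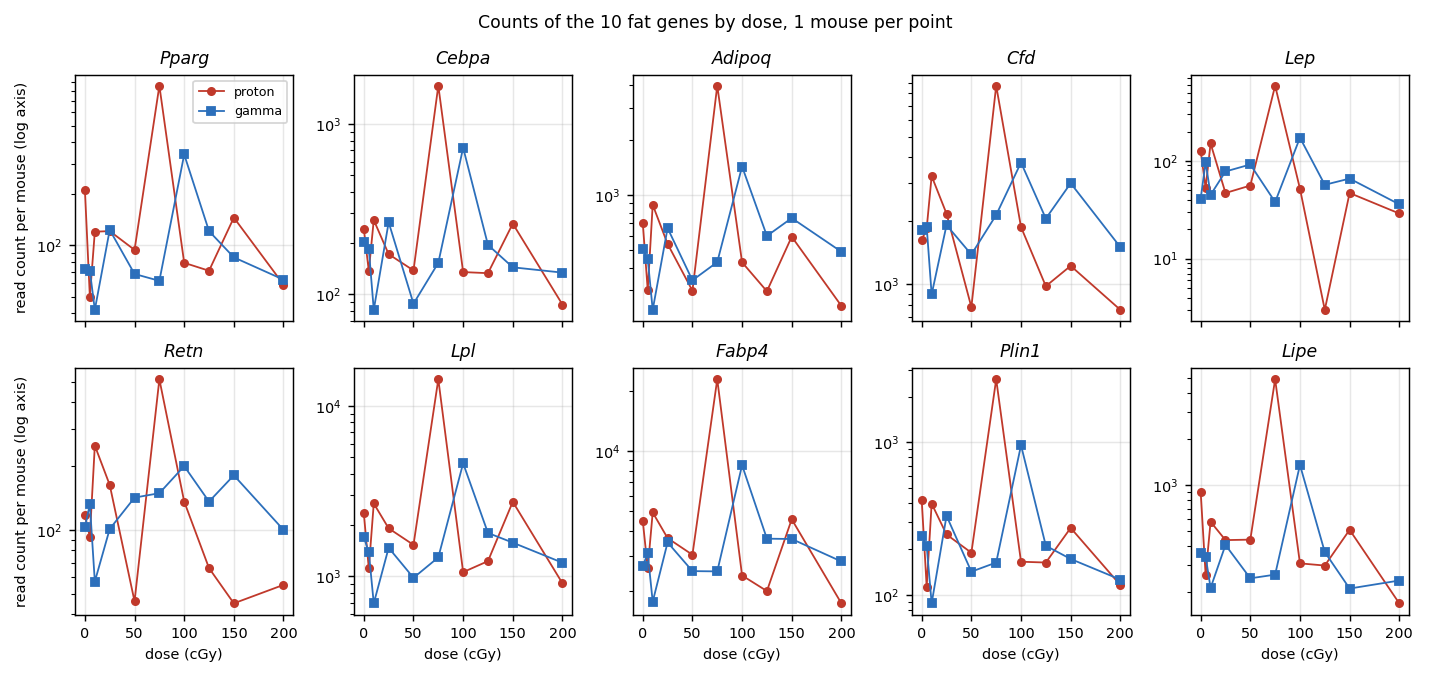
Read counts of the 10 fat genes (vertical, log axis) against whole-body dose in cGy (horizontal), 1 point per mouse, with proton mice as red circles and gamma mice as blue squares. The proton line peaks at 75 cGy in every panel, where Fabp4 reached 22839 counts, and the gamma line peaks at 100 cGy, where Fabp4 reached 8512.

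The transcription factors that drive the adipocyte programme were among the genes furthest from the other mice. Pparg (chr6:115311239-115440419, plus strand) had 42 to 211 counts in the 18 mice, with a median of 76. It had 854 counts in the proton mouse at 75 cGy and 339 in the gamma mouse at 100 cGy, which is 11.2-fold and 4.46-fold the median. Neither value overlapped with the 18, among which the proton sham mouse had the highest count and the gamma mouse at 10 cGy the lowest. Cebpa (chr7:35904312-35906945, plus strand) had 81 to 273 counts in the 18 mice (median 148.5). Its counts of 1682 and 727 were 11.3-fold and 4.90-fold the median in the proton and gamma mouse. Among the 18, Cebpa was highest in the proton mouse at 10 cGy and lowest in the gamma mouse at 10 cGy.

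Hormones and other secreted products of fat were less uniform. Adipoq (chr16:23146609-23158101, plus strand), which raises insulin sensitivity, had 235 to 884 counts in the 18 mice, with a median of 467.5, and 3974 and 1434 counts in the proton and gamma mouse, 8.50-fold and 3.07-fold the median. Both mice lay above the whole range, and the proton mouse at 10 cGy came next. Cfd (chr10:79353598-79355401, plus strand), the protease that starts the alternative complement pathway, had 756 to 3250 counts in the 18 (median 1820) and 8706 and 3768 in the proton and gamma mouse. Those values were 4.78-fold and 2.07-fold the median, so the gamma mouse exceeded the highest of the 18 by little.

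The white pair differed between its own members. Lep (chr6:29010220-29023877, plus strand), the hormone that reports fat stores to the brain, had 588 counts in the proton mouse at 75 cGy and 173 in the gamma mouse at 100 cGy, 11.2-fold and 3.30-fold the median of 52.5 counts. In the 18 mice it ranged from 3 to 151 counts. The 3 counts in the proton mouse at 125 cGy have an exact Poisson interval of 0.619 to 8.77 counts, and the next lowest mouse, proton at 200 cGy, had 29. Retn (chr8:3655770-3660110, plus strand), a cysteine-rich protein that mouse white fat secretes, had 45 to 250 counts in the 18 mice (median 110). With 514 counts it was 4.67-fold the median in the proton mouse, but the 200 counts of the gamma mouse, 1.82-fold, lay below the 250 of the proton mouse at 10 cGy.

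Genes that take up, carry, coat and release fat were high in both mice. Lpl (chr8:71404390-71431347, plus strand), the lipase that frees fatty acids from lipoproteins, had 695 to 2739 counts in the 18 mice (median 1429.5), and 14337 and 4610 counts in the proton and gamma mouse, 10.0-fold and 3.22-fold. Fabp4 (chr3:10204347-10208576, minus strand) ranged from 1741 to 4945 (median 2929.5), and had 22839 and 8512 counts, 7.80-fold and 2.91-fold. Both mice were outside the range of the 18 for each of these genes. Plin1 (chr7:86866050-86877662, minus strand), the coat of the fat droplet, had 88 to 418 counts in the 18 mice (median 180.5) and 2598 and 959 in the proton and gamma mouse, 14.4-fold and 5.31-fold. Lipe (chr7:26164546-26183729, minus strand), the hormone-sensitive lipase, had 168 to 904 counts (median 323.5) and 4930 and 1355 counts, 15.2-fold and 4.19-fold. Lipe was the furthest of the 10 genes from the other mice in the proton mouse and Plin1 in the gamma mouse.

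On the log2 scale the median excess over the 10 genes was 3.39 in the proton mouse at 75 cGy and 1.70 in the gamma mouse at 100 cGy, beside 0.033 and 0.027 over all genes tested. For the 8 general fat genes the medians were 3.40 and 1.88, and for the white pair 2.84 and 1.28. Most of this gap lay with Retn, whose excess was 2.22 and 0.86. Lep, with 3.46 and 1.70, was above the general median in the proton mouse and below it in the gamma mouse. Cfd, a general fat gene, was as low as Retn, with 2.26 and 1.05. The SD of log2(count + 1) among the 18 mice was 0.44 for Fabp4, 1.11 for Lep and between these for the other 8 genes. The split between white and general genes was thus smaller than the differences among the genes within each class.

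**Figure D2:**
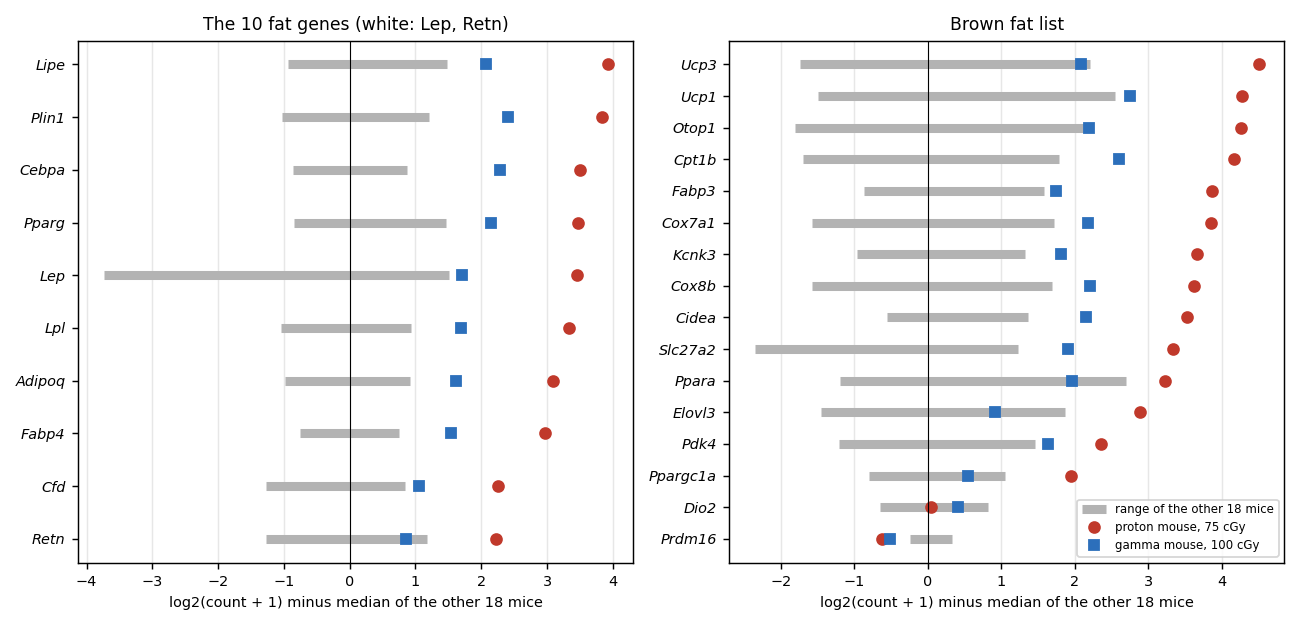
Log2(count + 1) minus the median of the other 18 mice (horizontal), for the 10 fat genes (left) and for the 16 tested genes of the brown fat list (right), with the range of the 18 mice as a grey bar, the proton mouse at 75 cGy as a red circle and the gamma mouse at 100 cGy as a blue square. All 10 red circles on the left lie beyond the grey bars, and the blue square of Retn lies inside its bar.

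Set against Adipoq in the same mouse, Retn and Cfd were scarcer in the 2 mice than in most others. There were 12.9 Retn counts per 100 Adipoq counts in the proton mouse at 75 cGy and 13.9 in the gamma mouse at 100 cGy, against a median of 23.5 (7.61 to 41.6) in the 18. Of the 20 mice these ranked 19 and 18, and only the proton mouse at 150 cGy was lower. Cfd counts per Adipoq count were 2.19 and 2.63 in the 2 mice, against a median of 3.63 (2.07 to 6.10), ranking 19 and 16. Lep did not follow them, with 14.8 and 12.1 counts per 100 Adipoq counts against a median of 11.8 (1.01 to 27.0), ranking 8 and 10. Plin1 counts per Adipoq count, at 0.654 and 0.669, were higher than in any of the 18 mice (0.230 to 0.632), though the highest of these was close. Lipe, at 1.24 and 0.945 against a median of 0.718 (0.281 to 1.47), ranked 3 and 5.

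**Figure D3:**
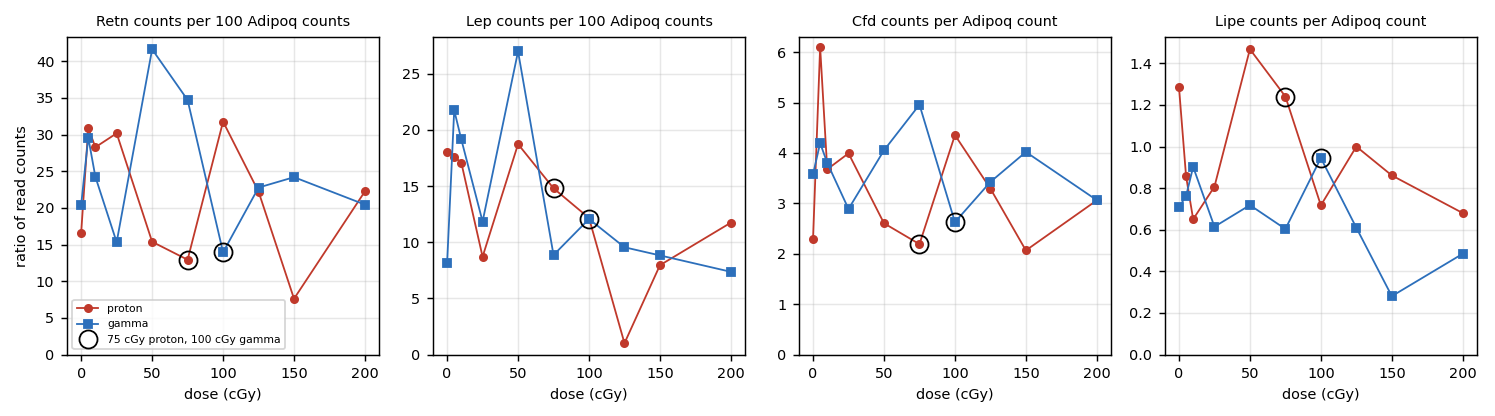
Ratio of the counts of Retn, Lep, Cfd and Lipe to those of Adipoq in the same mouse (vertical) against dose in cGy (horizontal), with proton mice in red and gamma mice in blue. The ringed proton mouse at 75 cGy and gamma mouse at 100 cGy are near the bottom for Retn (12.9 and 13.9 per 100 Adipoq counts) and Cfd (2.19 and 2.63 per Adipoq count) and not for Lep or Lipe.

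Markers of other tissues also differed in these mice. Smooth muscle markers summed to 160146 counts in the proton mouse and 237977 in the gamma mouse, both below the 265015 to 324203 of the 18, with 5 and 2 of the 5 genes below every one of the 18. Cardiac muscle markers (Myh6, Nppa, Myl7, Tnnt2 and Actc1) summed to 18113 counts in the proton mouse, against 94 to 350 in the 18, with all 5 above. In the gamma mouse they summed to 64. There Myh6 (0 counts), Tnnt2 (43) and Actc1 (21) were below all of the 18, while Nppa and Myl7 were at 0, as in some of the 18. Mesothelial markers (Msln, Upk3b, Lrrn4, Wt1 and Upk1b) summed to 539 and 137 counts against 0 to 102, with 5 and 3 of the 5 above, and no defining marker was at 0 in all mice. The erythroid sum of 12695 counts in the gamma mouse was above the range of 116 to 10183, and the 8586 of the proton mouse was inside it. Skeletal muscle markers summed to 435 and 80 counts against 67 to 138 in the 18 mice, and Schwann cell markers to 402 and 196 against 109 to 239. In the proton mouse 1 gene of each, Ckm with 404 counts and Mbp with 223, was above all of the 18. The skeletal muscle markers Acta1 (11 counts) and Tnnt3 (19) were inside the range of the 18 there. Sums for endothelium (6738 and 5649 against 2102 to 7475), fibroblasts (21398 and 29609 against 9965 to 31657), macrophages (1207 and 1289 against 193 to 1321) and T and B cells (22 and 21 against 0 to 43) were within the range of the 18. Within these sums, 2 of the 5 endothelial markers were above all of the 18 in both mice, among them Kdr, a receptor of vascular growth factors, with 534 and 168 counts against 31 to 123, and so was 1 macrophage marker in each mouse. Of all genes tested, 25.6% were above all of the 18 in the proton mouse and 12.6% in the gamma mouse. Those below all of the 18 were 16.7% and 4.9%. Beside these shares, 1 or 2 genes of 5 above the 18 say little. The part of these other tissues in the fat gene counts was not tested.

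By their median, brown fat genes were at least as far from the other mice as the 10 genes. Ucp1 had 7108 counts in the proton mouse and 2478 in the gamma mouse, against 130 to 2150 in the 18 (median 368.5). Of the 18 genes in a list of brown fat genes 16 were tested, and their median log2 excess was 3.57 and 1.93. Of the 16, 14 and 9 were above all of the 18 mice. Here and for the lists below, the shares of all genes tested above the 18 were 25.6% and 12.6%. Ucp3, a relative of Ucp1, led in the proton mouse with an excess of 4.51 and had 2.08 in the gamma mouse. Cidea, a droplet protein, had 3.53 and 2.16. The proton mouse also held the cardiac muscle reads given above, and their part in the values of this list was not tested. Prdm16, a factor of the brown fat programme, had an excess of -0.62 and -0.51 and was the 1 gene of the list below all 18 mice in both. Dio2, which activates thyroid hormone in brown fat, had 0.05 and 0.41.

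Of 10 other white fat genes 6 were tested, with a median log2 excess of 1.60 and 0.50. Of the 6, 3 and 1 were above all of the 18, beside 25.6% and 12.6% of all genes tested. The 1 gene in the gamma mouse is near that share and says little about white fat. Mest, an imprinted gene linked to adipocyte size, had 2.36 and 1.78, on 35 and 23 counts. The most abundant were Npr3, the clearance receptor of natriuretic peptides (0.39 and -0.18), Sncg (0.26 and -0.18) and Nnat (1.66 and 0.94), and all 3 were inside the range of the 18 in both mice. Wt1, which belongs to this list and to the mesothelial markers, did not reach a mean count of 5.

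Further general fat genes were close to the 8. Over 16 genes the median log2 excess was 3.32 and 1.80, with 15 and 13 above all of the 18 mice. Gpd1, which supplies the glycerol backbone of stored fat, had 4.52 and 2.62 and led in the proton mouse. Pck1, which makes glycerol from non-sugar sources in fat, led in the gamma mouse with 2.80, and Acsl1, an acyl-CoA synthetase, had 2.28 and 1.07. Plin4, a droplet coat protein, had the most counts of the list yet the lowest excess, 0.08 and -0.07. Its 3607 to 5869 counts in the 18 mice held the 4856 and 4360 of the proton and gamma mouse.

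Fat synthesis and breakdown genes were higher as well. The 16 lipid synthesis genes had a median excess of 2.87 and 0.95, and 16 and 8 were above all of the 18 mice. Dgat2, which closes the triglyceride, led with 4.21 and 2.48. Fatty acid synthase, Fasn, had 3.79 and 1.46, the desaturase Scd1 had 3.27 and 1.91, and its relative Scd2 was lowest with 0.66 and 0.09. Among 12 genes of lipolysis and the droplet the medians were 2.07 and 1.10, with 12 and 11 above, led by the droplet protein Plin5 (3.99 and 2.59). Pnpla2, the first lipase of the droplet, had 2.89 and 1.56, Plin2 had 2.91 and 1.19, Mgll had 1.03 and 0.31 and Plin3 had 0.91 and 0.39.

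Adipogenic factors and receptors were nearer to the other mice. The 11 tested adipogenic factors had a median excess of 0.40 and 0.39. Of these 6 and 5 were above all of the 18, beside 25.6% and 12.6% of all genes tested. Ebf2, a factor of brown preadipocytes, led with 1.87 and 1.40, while Srebf1 had 1.48 and 0.39, Ebf1 had 0.39 and 0.13, Rxra had 0.13 and 0.06, Klf15 had -0.12 and 0.25 and Stat5b had 0.07 and -0.04. The 9 receptors and partners of the secreted genes had medians of 0.27 and 0.00032, with 5 and 3 above, beside the same shares of all genes. Gpihbp1, which anchors Lpl to capillaries, had 2.71 and 1.93. The adiponectin receptor Adipor2 had 2.18 and 0.97 and Adipor1 had 0.31 and 0.13. Cdh13, a cadherin that binds adiponectin, had -0.62 and -0.09, and the leptin receptor Lepr had -0.30 and -0.49.

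**Figure D4:**
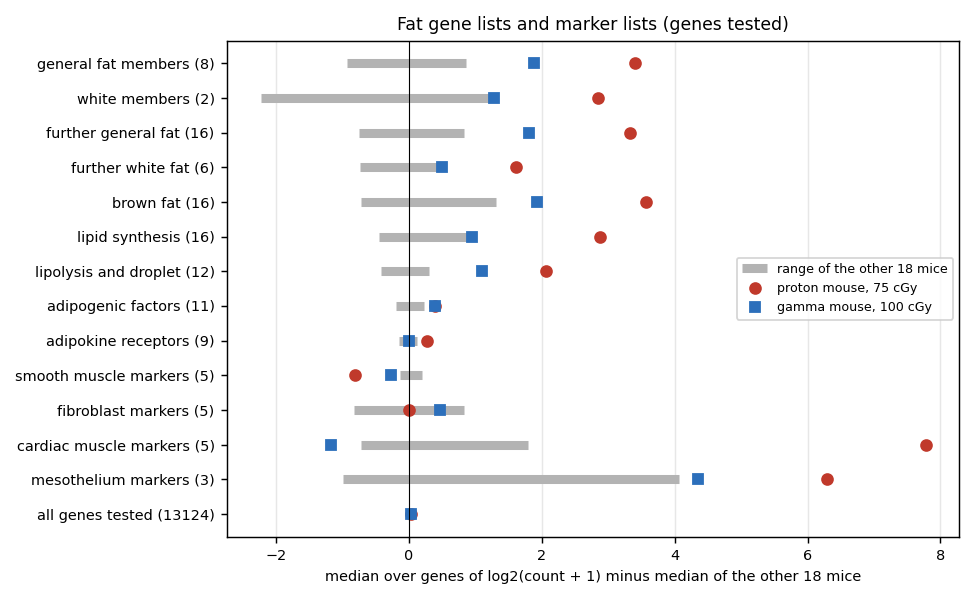
Median over the tested genes of each list of log2(count + 1) minus the median of the other 18 mice (horizontal), with the number of tested genes in brackets, the range of the 18 mice as a grey bar, the proton mouse at 75 cGy in red and the gamma mouse at 100 cGy in blue. General fat genes (3.40 and 1.88) and brown fat genes (3.57 and 1.93) lie furthest to the right among the fat lists, cardiac muscle markers (7.78 and -1.17) differ between the 2 mice, and all genes tested lie at 0.033 and 0.027.

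Variation among the other 18 mice was also wide. Across them the highest count was between 2.84-fold (Fabp4) and 5.56-fold (Retn) the lowest for 9 genes, and 50.3-fold for Lep, where the lowest was the 3 counts named above. Without that mouse the ratio for Lep was 5.21. With the 2 mice included, the ratio was 11.4 for Retn, 29.5 for Plin1 and between these for the other 7 of the 9 genes, and 196 for Lep. The median SD of log2(count + 1) among the 18 was 0.59 for the 10 genes, 0.214 for all genes tested, 0.117 for smooth muscle markers and 0.829 for the brown fat list. Skeletal muscle (0.364) and fibroblast markers (0.522) varied less than the 10 genes. Markers of Schwann cells (0.661), endothelium (0.673), cardiac muscle (0.744), macrophages (1.01), mesothelium (1.83) and erythroid cells (2.36) varied more. A wide spread was thus not particular to fat genes. Of the 9817 genes that averaged 50 counts or more, between 94.1% (Fabp4) and 99.8% (Lep) had a smaller SD than the fat gene named.

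The genes were high and low in much the same mice. All 10 were above their median of the 18 in the proton mouse at 10 cGy and the gamma mouse at 125 cGy, and none was in the proton mice at 125 and 200 cGy or the gamma mouse at 10 cGy. Among the 18, the proton mouse at 10 cGy was highest for Cebpa, Adipoq, Cfd, Lep, Retn and Fabp4, the proton sham mouse for Pparg, Plin1 and Lipe, and the proton mouse at 150 cGy for Lpl. The white pair did not always go with the general genes. In the proton mouse at 150 cGy 7 of the 8 general genes and neither of the white pair were above the median, with 7.61 Retn counts per 100 Adipoq counts, and in the gamma mouse at 50 cGy none of the 8 and both of the pair were, with 41.6. In the gamma sham mouse 5 of the 8 and neither of the pair were above the median.

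Before any dose, the sham mice already differed. The proton sham mouse had 3.10-fold the Lep count of the gamma sham mouse (127 against 41), 2.89-fold the Pparg count (211 against 73) and 2.53-fold the Lipe count (904 against 357). The other ratios were between 1.14 and 1.72, except for Cfd at 0.895. With 1 sham mouse per radiation type, these ratios have no replicate check.

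No dose trend passed the test for any of the 10 genes in the 20 mice. Slopes on dose came from edgeR, run over all genes, in log2 per 100 cGy, with an adjusted p of 0.1 as the threshold. After protons all 10 slopes were below 0, from -0.86 ± 0.80 (SE) for Lep to -0.24 ± 0.71 for Lpl, and 0 of 10 were called, against 1.76% of all genes tested (1.6% upward and 0.16% downward). Retn had a slope of -0.74 ± 0.49 and the smallest adjusted p, 0.581, and Cfd had -0.66 ± 0.52. After gamma rays 9 slopes were above 0, up to 0.41 ± 0.57 for Adipoq, whose adjusted p of 0.811 was the smallest, and Lep had -0.11 ± 0.71. Again 0 of 10 were called, against 7.65% of all genes (5.44% upward and 2.21% downward).

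Without the 2 mice, the standard errors shrank and the slopes after protons stayed below 0 for all 10 genes. Lep had a slope of -1.06 ± 0.37 per 100 cGy (edgeR p 0.0110, adjusted p 0.135), Retn -0.82 ± 0.29 (edgeR p 0.0130), Cfd -0.69 ± 0.25 (edgeR p 0.0142) and Lipe -0.60 ± 0.23 (edgeR p 0.0217). These were the only 4 with an unadjusted p under 0.05, and 0 of 10 passed the threshold, against 5.68% of all genes (4.27% upward and 1.4% downward). The remaining slopes were -0.50 ± 0.28 for Plin1, -0.45 ± 0.26 for Adipoq, -0.38 ± 0.20 for Fabp4, -0.35 ± 0.26 for Pparg, -0.31 ± 0.25 for Cebpa and -0.28 ± 0.25 for Lpl. In this fit the white pair had steeper slopes than any general gene, a difference that was not tested. That order did not hold from 0 to 125 cGy without the 2 mice. There Lep (-2.05) was steepest, but Retn (-0.69) was less steep than the median of the general genes (-0.77). In the gamma mice the fit over all doses without the 2 mice gave slopes from -0.30 for Lep to 0.26 ± 0.25 for Adipoq (adjusted p 0.617). Of these slopes 6 were above 0 and 4 below, with 0 of 10 called against 13.8% of all genes (8.58% upward and 5.17% downward).

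Single mice decided which proton slopes passed. When a further mouse was left out of the 18, an added check chosen after the data were seen, all 10 proton slopes stayed below 0. Each radiation type had its own slope, so only the fits without a proton mouse could move a proton slope by more than a little. The 10 genes were also high and low in much the same mice, so their directions are not independent of each other. Between 1 and 2 genes then passed the threshold in 5 fits, namely Lipe without the proton mouse at 5 cGy (adjusted p 0.0709), Cfd without that at 50 cGy (0.0979), Retn without that at 100 cGy (0.0957), Lep without that at 125 cGy (0.0904), and Lipe and Fabp4 without that at 150 cGy (0.0665 for Fabp4). In the same order, these 5 fits called 776, 579, 973, 1426 and 246 of the 13124 genes tested. Lep without the proton mouse at 125 cGy, which had 3 counts, had a slope of -0.85. Without the proton mouse at 200 cGy the smallest adjusted p was 0.464. From 0 to 125 cGy with all mice the proton slopes were instead above 0, from 0.13 for Retn to 1.17 for Lipe. Without the 2 mice they were below 0, from -2.05 for Lep to -0.63 for Cebpa. In that fit 0 were called, with a smallest adjusted p of 0.389 (Fabp4), beside 14 upward and 6 downward calls among all genes.

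**Figure D5:**
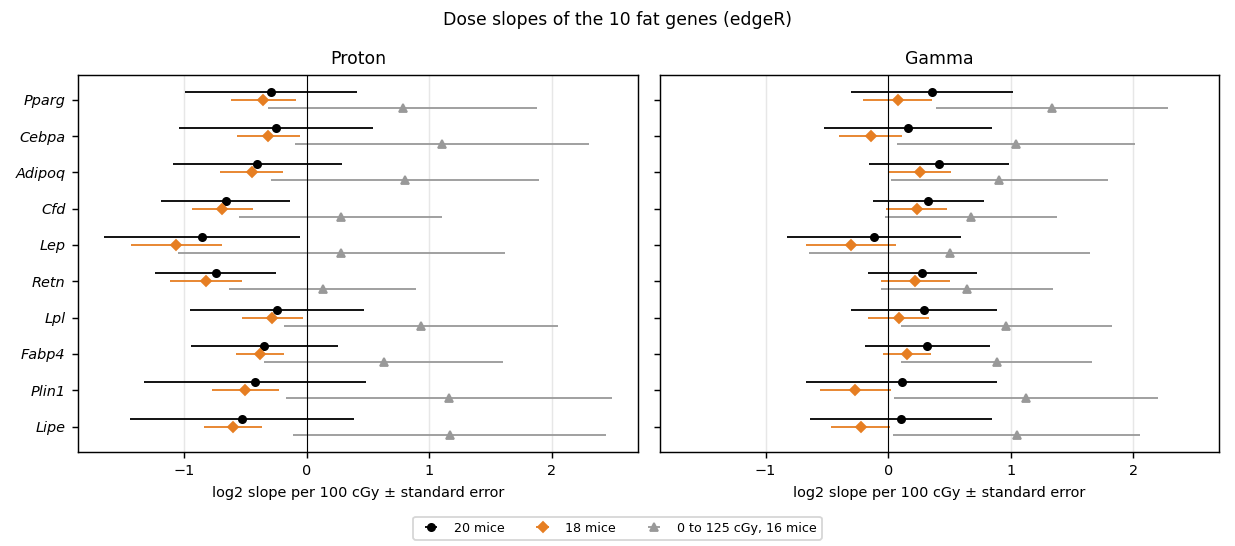
Slope on dose in log2 per 100 cGy with its standard error (horizontal) for the 10 fat genes after protons (left) and gamma rays (right), from 20 mice (black), from 18 mice without the proton mouse at 75 cGy and the gamma mouse at 100 cGy (orange) and from the 16 mice at 0 to 125 cGy (grey). Black and orange proton slopes are all below 0 and grey ones all above, from 0.13 to 1.17.

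A rank test gave the same lack of calls. The Spearman correlation of count with dose over the 10 proton mice was lowest for Lep (rho -0.60, exact two-sided permutation p 0.0734, adjusted p 0.766), and no gene of the 10 passed in either radiation type, against 0.0762% of all genes after protons and 1.73% after gamma rays. Without the 2 mice Lep had rho -0.73 over 9 proton mice (exact permutation p 0.0311, adjusted p 0.506).

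The radiation types were also compared with each other. The proton slope minus the gamma slope was below 0 for all 10 genes, from -1.02 for Retn to -0.41 for Cebpa, and no gene of the 10 or of the 13124 passed (background 0.0%, with 254 genes at an unadjusted edgeR p under 0.05 and 0 called by DESeq2). Without the 2 mice the differences were -1.04 for Retn to -0.17 for Cebpa, with 0 again called and a smallest unadjusted edgeR p of 0.0182 for Cfd. From 0 to 125 cGy with all mice 3 of the 10 differences were above 0, from -0.55 (Pparg) to 0.12 (Lipe), and on log2(dose + 1) 3 were also above 0. The level in proton against gamma mice at matched dose, with dose as a block, differed by -0.19 (Cfd) to 0.53 (Lipe) on the log2 scale, and the smallest adjusted p was 0.812 for Lipe, with 0.0% of all genes called. Without the 2 mice it differed by -0.35 (Retn) to 0.47 (Lipe), with a smallest adjusted p of 0.624 and 0.792% of all genes called. The direction turned with the mice and the block. All 10 genes were higher in proton mice without the block, from 0.17 (Retn) to 1.13 (Lipe), and 7 of 10 were lower without the proton mouse at 75 cGy, down to -0.43 (Lep), with none called in either fit.

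Dose trends were looked for in the other genes of the pathway in the same fits. In the 20 mice none of the 85 tested genes of the 7 fat lists passed after protons. After gamma rays 3 of the 85 (3.53%) passed, a smaller share than the 7.65% of all genes. Klf15, a factor that supports adipogenesis, rose (0.65 ± 0.15, adjusted p 0.0263), as did the lipid-sensing receptor Tlr4 (0.38 ± 0.12, adjusted p 0.0776), and Rxra fell (-0.31 ± 0.06, adjusted p 0.0122). These calls are no more than the background.

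Without the 2 mice, 8 of the 16 lipid synthesis genes fell with proton dose and none rose, beside 1.4% of all genes that fell. Mlxipl, the sugar-sensing factor of fat synthesis, fell by 1.05 ± 0.16 log2 units per 100 cGy (adjusted p 0.00224). Its counts were 457 in the proton sham mouse, 449 at 10 cGy, 119 at 125 cGy and 114 at 200 cGy. Fasn fell by 1.43 ± 0.28 (adjusted p 0.0208) and its factor Srebf1 fell by 0.47 ± 0.09 (adjusted p 0.0174). Agpat2, Acly, Me1, Scd2 and Elovl6 completed the 8, while Scd1 did not pass. The count ranged from 2 genes without the proton mouse at 200 cGy, where 44 of all genes were called, to 10 without that at 5 cGy, where 776 were. It was 5 without the proton mouse at 0, 10 or 25 cGy. It was 0 from 0 to 125 cGy and by the rank test. Without the 2 mice those settings called only 6 and 0 of all 13124 genes downward, so a 0 there says little about the 16. In the gamma mice of the same fit Srebf1 alone of the 16 fell (-0.41 ± 0.10, adjusted p 0.0164).

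The remaining lists gave fewer calls in the 18 mice after protons. Among 16 further general fat genes 4 fell, Slc2a4, the insulin-responsive glucose transporter (-0.49), Thrsp, which supports lipid synthesis (-1.38), Mrap and Tusc5. In the brown fat list Ucp3 (-1.30, adjusted p 0.0188) and Otop1 (-1.03) fell and Ppargc1a, a coactivator of mitochondrial genes, rose (0.56, adjusted p 0.0806). Plin2 (-0.70), Gpihbp1 (-1.06), Srebf1 and Stat5a fell in the other lists, and none of the 6 further white fat genes passed. Over the 7 lists 17 of the 85 genes fell and 1 rose after protons, beside 1.4% and 4.27% of all genes. Thrsp, Mrap and Tusc5 were also highest of the 18 in the proton mice at 0 and 10 cGy, so these falls are not independent either. After gamma rays 6 of the 85 (7.06%) passed, a smaller share than the 13.8% of all genes. Ucp3 (-0.86), Srebf1, Rxra and Stat5a (-0.23) fell and Klf15 (0.64) and Tlr4 (0.38) rose. From 0 to 125 cGy without the 2 mice no listed gene passed after protons, and Klf15 alone passed after gamma rays. Of all 13124 genes 14 rose and 6 fell there after protons, and 40 rose and 8 fell after gamma rays. No listed gene differed between the proton and gamma slopes in any of these fits. In the comparison at matched dose without the 2 mice, Elovl3, Scd2 and Stat5a of the 85 genes were higher in proton mice. No other listed gene passed, and 0.267% of all genes were called upward. Elovl3 had a median of 4.5 counts in the 18 mice (1 to 19), near the floor of 3 counts.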

How the data were processed

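Aortic RNA of 20 mice was sequenced as polyA-selected, paired reads of 100 bases. The authors aligned them with STAR 2.5.2a to mm9 (CASAVA 1.8.1 is also named in the submitters' processing notes), resampled the libraries to a common depth with PORT and deposited sense-strand gene counts, as whole numbers, with no further scaling. The 10 genes, the lists and the 2 mice set apart were chosen with earlier results of these data known. Groups and doses came from the sample labels. Positions, exon lengths and GC content came from the GENCODE M1 annotation of mm9, and promoters from RefSeq.

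Counts totalled 6051657 to 6058006 per mouse. The 13124 genes averaging 5 counts or more were fitted in edgeR 4.0.16 (R 4.3.3) with TMM, robust quasi-likelihood and an intercept and slope per radiation type. Type at matched dose was fitted with dose as a block, which pairs the mice given the same dose. The labels call each mouse a separate animal. p-values were adjusted by Benjamini-Hochberg with a threshold of 0.1. Spearman tests were exact and two-sided. Log2 excesses used a pseudocount of 1. The fits were tested on simulated data.

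Every one of the 10 genes is named, and from each list the 3 genes with the highest mean count, those with the highest and lowest excess and up to 3 per direction past the threshold. Dio2, Tusc5, Agpat2, Acly, Me1, Elovl6 and Wt1 are outside this rule and were named after their values were seen. Alternatives were DESeq2 1.42.0, no TMM, other filters, another pseudocount, dose as its rank or log2(dose + 1), 0 to 125 cGy, leaving out mice, and the level without the block. The rest was done in Python 3.11.15 (scipy 1.17.1, numpy 2.4.6, pandas 2.3.3).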

Additional observations from a re-analysis of the deposited data

Results flagged for a closer look

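The highest of the 10 mice of a radiation type was set apart from the rest for 18 of 20 combinations of gene and radiation type, where its gap to the next mouse, as a share of the whole range, was above Dixon's 95% limit for 10 mice. Both mice had been singled out with earlier results of these data known, so these shares describe them and are no test. The limit was not applied to genes outside the 10, so the count has no background beside it. The proton mouse at 75 cGy was above all of the other 18 mice for 25.6% of all genes tested, and the gamma mouse at 100 cGy for 12.6%. The 10 genes were high and low in much the same mice, so the 20 combinations are not independent of each other. The limit passes about 1 in 20 groups of normally distributed values, where no mouse is known beforehand. Raw counts, which were used here, need not follow that distribution. Without a log scale, gaps at the high end are stretched and those at the low end are shrunk. In the proton mice it was the mouse at 75 cGy for all 10 genes, with shares of 0.8834 for Cebpa, 0.8773 for Plin1, 0.8638 for Lpl, 0.8481 for Fabp4, 0.8454 for Lipe, 0.8291 for Adipoq, 0.7998 for Pparg, 0.747 for Lep, 0.6863 for Cfd and 0.5629 for Retn. In the gamma mice it was the mouse at 100 cGy for 8 genes, with shares of 0.8297 for Lipe, 0.7273 for Pparg, 0.7222 for Plin1, 0.7201 for Fabp4, 0.7183 for Lpl, 0.7152 for Cebpa, 0.5721 for Adipoq and 0.5547 for Lep, and not for Cfd or Retn. The lowest mouse was not set apart for any of the 10 genes in either radiation type.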

How the results depend on the processing

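None of the 10 fat genes passed the threshold in either radiation type, for the slope difference or for the level, under DESeq2, no TMM, other filters, other dose scales, 0 to 125 cGy, the rank test or without either or both of the 2 mice. Of their 260 slopes under these settings 224 kept their direction and 36 did not, 20 of them after protons, and none was called. These 260 do not count the slope differences and levels, whose turned directions stand with those results. All 128 excess values of the 2 mice moved by less than 1 SD of the other 18. Leaving out each of the 18 mice in turn was chosen after the data were seen. It gave 0 to 2 of the 10 genes called after protons and 0 after gamma rays. Lipid synthesis genes called were 2 to 10 and 0 to 3, beside 44 to 1426 and 385 to 2017 of all genes tested. For the slopes that changed sign the cause was not tested.

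After protons the slopes from 0 to 125 cGy were 0.79 for Pparg, 1.11 for Cebpa, 0.80 for Adipoq, 0.28 for Cfd, 0.28 for Lep, 0.13 for Retn, 0.93 for Lpl, 0.63 for Fabp4, 1.16 for Plin1 and 1.17 for Lipe. Per unit of log2(dose + 1) they were 0.0428 for Pparg, 0.111 for Cebpa, 0.0659 for Adipoq, 0.00209 for Cfd, 0.0990 for Lpl, 0.0590 for Fabp4, 0.0877 for Plin1 and 0.0663 for Lipe, and per rank of dose 0.00957 for Cebpa and 0.00843 for Lpl. After gamma rays the slopes without the mouse at 100 cGy were -0.13 for Cebpa, -0.26 for Plin1 and -0.21 for Lipe, without both mice -0.14, -0.27 and -0.22, and from 0 to 125 cGy without both -0.00650 for Cebpa and -0.11 for Plin1. Lep had 0.50 from 0 to 125 cGy and 0.0532 on log2(dose + 1). Rank correlations were -0.139 for Cebpa, -0.236 for Plin1 and -0.224 for Lipe, and without both mice -0.300, -0.417 and -0.383.

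Over all genes the proton slope called 231, and 139 without a filter, 491 without the proton mouse at 75 cGy, 745 without both mice, 14 from 0 to 125 cGy, 20 there without both, 41 on dose ranks, 22 on log2(dose + 1), and 10 and 9 by the rank test with and without the 2 mice. The gamma slope called 1004, and in the same order 618, 1583, 1805, 34, 48, 480, 45, 227 and 177. Lipid synthesis genes called after protons were 4 without the proton mouse at 75 cGy and 8 without both mice, against 0 in the 20, and after gamma rays 1 and 1 against 0. The level, with dose as a replicate block that pairs the mice, called 0 genes (1032 at an unadjusted edgeR p under 0.05), and 0 without the block (843). It called 70 with DESeq2, 3 without a filter, 20 without the proton mouse at 75 cGy, 104 without both mice and 105 without both pairs. With 1 mouse per dose, the standard errors of the fat gene slopes set the size of trend that could be seen.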
